A study of Homo sapiens with 2 samples.

Results

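The CLK and SRPK genes encode the kinases that phosphorylate SR proteins, the splicing factors that bind exons and recruit the spliceosome. All rows of the 5 deposited splicing tables whose gene symbol was CLK1, CLK2, CLK3, CLK4, SRPK1 or SRPK2 were taken. These 6 genes, of 12254 genes with any event, held 112 of 159490 events. The tables come from poly-A selected RNA of HEK293T cells, a transformed line derived from human embryonic kidney. The control group is 1 library of cells that received no drug, and the amiloride group is 1 library of cells kept for 6 h in medium with 300 µg/mL of amiloride, a potassium-sparing diuretic acting on epithelial sodium channels. The authors compared the libraries with rMATS, a program that sets the reads of an RNA form that includes a stretch against those of the form that skips it.

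The values that can be given here are those of the events themselves: which exons and introns of the kinase genes were listed, between which neighbours, how long they were and what their splice sites read. In the tables the libraries carry numbers and no condition, so reads and inclusion levels could not be tied to control or amiloride cells and were not used. The comparison columns made by the authors were not used either. The direction and size of any change of these genes after amiloride are therefore not reported, the depth of the libraries is not given, and there is no replicate of either condition. Marker genes of the cell line were not checked, for the same reason. A listed event entered the authors' comparison. It does not say how often either form was made.

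CLK proteins (cdc2-like kinases) sit in the nucleus, where they release SR proteins from nuclear speckles, and phosphorylate serine, threonine and tyrosine. SRPK proteins phosphorylate the arginine-serine repeats of SR proteins in the cytoplasm and so promote their import into the nucleus. The CLK genes are known to regulate themselves through exon 4. The transcript without it encodes a truncated protein without the catalytic domain, and CLK1 transcripts that keep the introns beside exon 4 are known to be held in the nucleus.

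Exon 4 was listed as a skipped exon in all 4 CLK genes. It is shown first, a choice made after its values were seen, because its 5′ splice sites (5′SS) had the lowest scores of the kinase exons. Each sequence is the exon on GRCh37, read 5′ to 3′ on the strand of the gene, in lower case with the intron bases AG before it and GT after it in capitals. The CLK1 exon lies at chr2:201724848-201724938 on the minus strand, the CLK4 exon at chr5:178044345-178044435 on the minus strand, the CLK2 exon at chr1:155238499-155238586 on the minus strand and the CLK3 exon at chr15:74914461-74914557 on the plus strand.
CLK1: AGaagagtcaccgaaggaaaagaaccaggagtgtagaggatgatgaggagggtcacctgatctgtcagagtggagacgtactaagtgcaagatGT
CLK4: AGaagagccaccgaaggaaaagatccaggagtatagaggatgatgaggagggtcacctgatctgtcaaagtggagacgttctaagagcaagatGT
CLK2: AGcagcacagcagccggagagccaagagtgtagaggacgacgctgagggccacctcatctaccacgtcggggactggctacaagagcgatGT
CLK3: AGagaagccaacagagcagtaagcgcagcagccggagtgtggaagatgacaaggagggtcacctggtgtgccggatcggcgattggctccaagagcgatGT

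The 4 exons measured 91 bases in CLK1 and CLK4, 88 in CLK2 and 97 in CLK3. All were coding exons, and none had a length that is a multiple of 3. Aligned end to end, exon 4 of CLK1 and CLK4 was identical at 93.4% of positions, the highest value among the 11 coding exon pairs of these genes. Identity was 66.3% between CLK2 and CLK3 and 62.6% between CLK1 and CLK2. Each gene listed exon 4 between exons 3 and 5, and CLK2 listed it in a shorter version too.

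The 5′SS of exon 4 was weak in every CLK gene. Each 5′SS was scored over 9 bases, 3 of the exon and 6 of the intron, as the sum of log2 ratios between base frequencies at annotated sites and equal frequencies, so that a higher score means a site closer to the consensus. The score of exon 4 was 1.68 in CLK1, 1.68 in CLK4, 1.10 in CLK3 and 1.06 in CLK2. Over all 67154 distinct exons of the skipped-exon table the median score was 8.07, with quartiles of 6.36 and 9.55. Only 1.58% of all listed exons scored below CLK1 and CLK4, 1.30% below CLK3 and 1.29% below CLK2. These shares include sites without GT, which score low by the way the score is made. Of all listed exons 98.9% lay between AG and GT, and the shares among GT sites alone are not given here. The sites are shown with the intron GT in capitals.
CLK1 exon 4: gatGTatag
CLK4 exon 4: gatGTatag
CLK3 exon 4: gatGTacag
CLK2 exon 4: gatGTacaa

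CLK1 and CLK4 shared all 9 letters, and these 2 were the only listed exons with that site. The 6 letters GATGTA, searched on the strand of the gene at the exon end, stood at 308 of the 67154 listed exons, or 0.459%. Among the kinase exons they stood at 6, which were both versions of CLK2 exon 4, exon 4 of the other 3 CLK genes, and exon 7 of CLK3, whose site gatGTaagt scored 8.39.

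The 3′ splice site (3′SS) of exon 4 was less uniform. Scored in the same way over 23 bases, 20 of the intron and 3 of the exon, it reached 6.92 in CLK4, 5.42 in CLK1 and 4.29 in CLK2. In CLK3 it was -2.64, and 0.275% of listed exons scored lower, sites without AG included. The median over all listed exons was 9.21, with quartiles of 6.96 and 11.4. The CLK3 site is interrupted by guanines where a run of pyrimidines is usual, as its letters show beside those of CLK1.
CLK3 exon 4: tcggggggcggtgcatgcAGaga
CLK1 exon 4: cgcccacttgacgtttccAGaag

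**Figure D1:**
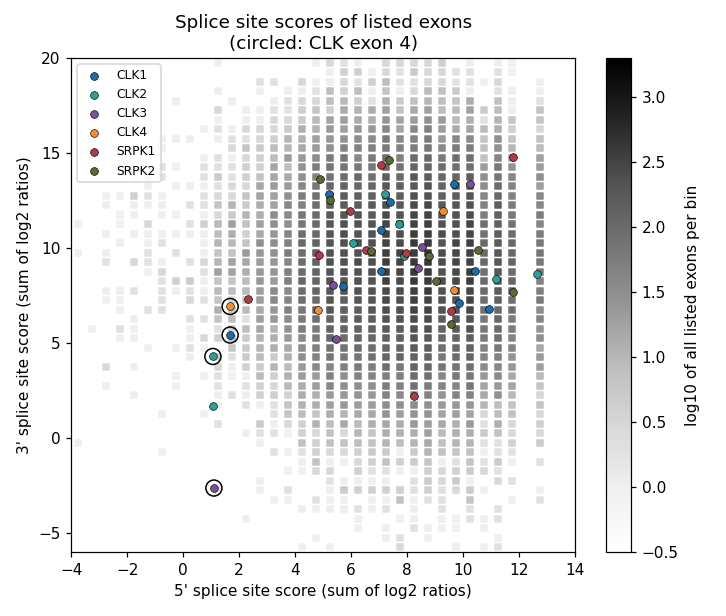
Splice site scores of the 46 kinase exons listed as skipped (coloured points, by gene) over all listed exons (grey squares, on a log10 scale of exons per bin). The x axis is the 5′SS score and the y axis the 3′SS score, both sums of log2 ratios. The circled exon 4 of the 4 CLK genes lies between 1.06 and 1.68 on the x axis, left of the median of 8.07, and the uncircled CLK2 point at 1.06 on the x axis and 1.69 on the y axis is the shorter version of its exon 4. The axes leave out listed exons with lower scores.

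CLK2 exon 4 was also the site of an alternative 3′SS event. The long exon started 3 bases upstream of the short one, so the exon measured 88 or 85 bases, and both versions were listed as skipped exons between exons 3 and 5. The 2 sites lie in tandem, as the stretch at chr1:155238578-155238606 on the minus strand shows with both AG in capitals.
CLK2 tandem 3′SS: ccccccctgccccccgacAGcAGcacagc

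The upstream AG had a 3′SS score of 4.29 and the downstream AG a score of 1.69, which was above 1.90% of listed exons. The choice between them adds or removes 1 codon and keeps the reading frame. A tandem of this kind, with an AG 1 base after the AG of the splice site, was found at 3492 of the listed exons, or 5.20%.

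CLK1 was the only member with a retained intron event and the only one with an alternative 5′SS event, and both involved the region of exon 4. The retained stretch, on chromosome 2 from 201724470 to 201725960, runs from the end of exon 3 to the start of exon 5. It is 1491 bases long and contains exon 4 whole, with intron 3 of 1022 bases on one side and intron 4 of 378 bases on the other. The spliced form in this event therefore joins exon 3 to exon 5 without exon 4, and the event sets the unspliced stretch against the exon 4 skipping form. Since the length of the stretch is a multiple of 3, both forms of this event share a frame downstream of it. That is not the canonical frame, since the spliced form lacks exon 4, whose 91 bases are not a multiple of 3. Stop codons within the stretch were not examined. The alternative 5′SS event used the same unspliced exon, from 201724403 to 201726189, joined to exon 9, against exon 3 joined to exon 9. The added stretch was 1558 bases. This long exon, annotated in GENCODE, was also a flank in 3 of the skipped-exon events of CLK1.

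SRPK1 was listed with an alternative 3′SS event at exon 3. The long form of the exon, on chromosome 6 from 35858672 to 35858818, starts 28 bases upstream of the canonical exon, and 28 is not a multiple of 3. No alternative splice site and no retained intron were listed for CLK3, CLK4 or SRPK2. The 3 tables concerned were small, with 2620 alternative 5′SS, 2868 alternative 3′SS and 677 retained intron events, and most genes have none.

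The skipped-exon table held 85 events of the 6 genes, with 20 for SRPK1, 19 for CLK2, 17 for CLK1, 13 for SRPK2, 10 for CLK3 and 6 for CLK4. An exon can be in several events, which differ in the exons that flank it. The events described 46 distinct exons: 10 in CLK1, 9 in SRPK1, 9 in SRPK2, 8 in CLK2, 6 in CLK3 and 4 in CLK4. The median over all genes of this table was 4 exons. In the 5 tables together SRPK1 had 29 events, CLK2 28, CLK1 23, SRPK2 14, CLK3 10 and CLK4 8, where the median gene had 8 and the upper quartile began at 17. SRPK1 exceeded 88.2% of genes, CLK2 87.4% and CLK1 82.3%, whereas CLK4 exceeded 49.2%. The number of events a gene can have depends on its number of exons and annotated transcripts and on its reads, and the part of these was not tested.

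All 46 exons lay between AG and GT, beside 98.9% of all listed exons. All 46 were annotated by GENCODE and had both splice sites annotated, and these shares over all listed exons are not given here. The canonical transcripts of the CLK genes have 13 exons and those of the SRPK genes 16. Of the 72 internal exons of the 6 canonical transcripts, 44 were listed as skipped, or 61.1% (95% Wilson interval from 49.6 to 71.5, for counting error alone). The same share over all genes is not given here, so whether 61.1% is high cannot be said. CLK1 was covered most, with 10 of 11 internal exons, and only exon 3 was not listed. CLK2 had 7 of 11, CLK3 6 of 11 and CLK4 4 of 11. SRPK1 had 9 of 14 and SRPK2 8 of 14. The 2 exons outside the canonical transcripts were the shorter CLK2 exon 4 and a 64-base exon of SRPK2 on chromosome 7 from 104909253 to 104909316. The latter lies in intron 2, which spans 184862 bases, and is coding in another annotated transcript.

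**Figure D2:**
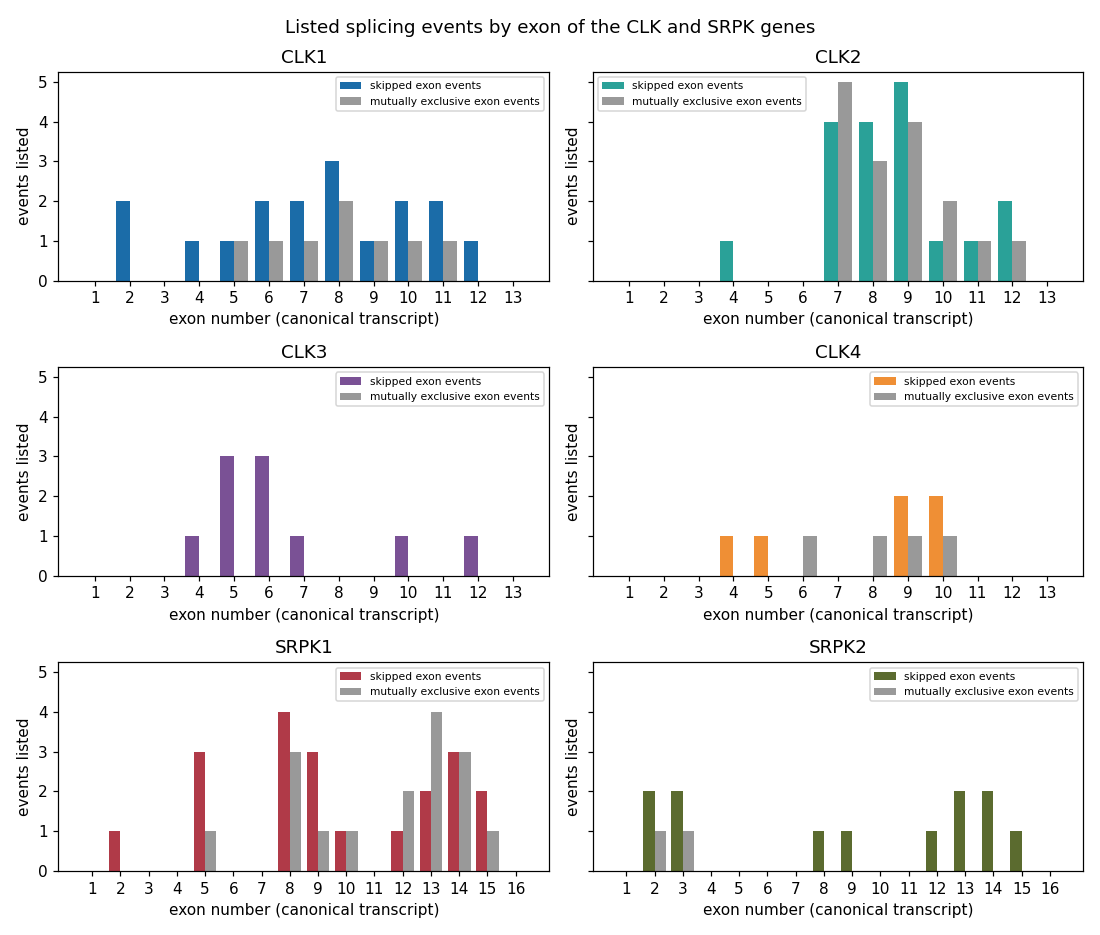
Number of listed events (y axis) for each exon of the canonical transcript (x axis), with 1 panel per gene. Coloured bars count skipped-exon events and grey bars mutually exclusive exon events that contain the exon. CLK2 events crowd on exons 7 to 9, with 5 skipped-exon events for exon 9, and no bar stands at exon 3 of any CLK gene.

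Exons 4 and 10 were listed in all 4 CLK genes, and exon 3 in none. Exons 5, 7, 9 and 12 were listed in 3 of the genes, and exons 6, 8 and 11 in 2. Exon 2 was listed in CLK1 alone. The exon with the most events was exon 9 in CLK2, on chromosome 1 from 155234436 to 155234565, with 5. In CLK1 it was exon 8, from 201721614 to 201721708, with 3. In CLK3 exons 5 and 6 had 3 events each, and in CLK4 exons 9 and 10 had 2 each. In SRPK1 exon 8, on chromosome 6 from 35840340 to 35840505, had 4 events. No SRPK2 exon had more than 2.

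The paralogs kept their exon lengths. At 8 exon numbers, 5 to 12, all 4 CLK genes had exons of the same length, namely 67, 117, 167, 95, 130, 83, 80 and 91 bases. These exons encode most of the kinase domain. Exons 2 and 3 and exon 4 differed between genes. Over the equal-length exons the median identity was 80.4% between CLK1 and CLK4, the closest pair, 72.9% between CLK2 and CLK3, and 63.6% between CLK1 and CLK3. Exon 5 illustrates the closest pair, at chr2:201724403-201724469 in CLK1 and chr5:178043883-178043949 in CLK4, both on the minus strand, with 80.6% identity. It holds the codons of the glycine-rich loop, which binds ATP in protein kinases.
CLK1 exon 5: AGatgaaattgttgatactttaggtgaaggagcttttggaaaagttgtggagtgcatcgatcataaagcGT
CLK4 exon 5: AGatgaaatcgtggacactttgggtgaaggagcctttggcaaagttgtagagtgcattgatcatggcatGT

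The splice sites of such matched exons were not equally strong. The 5′SS of exon 5 scored 5.22 in CLK1, 9.30 in CLK4 and 10.3 in CLK3. For exon 10 the 5′SS score was 12.6 in CLK2, where the site cagGTaagt exceeded 99.3% of listed exons, 9.66 in CLK4, 7.07 in CLK1 and 5.36 in CLK3. Exons 4 and 10 were the exons listed in all 4 genes, and exon 4 alone had a low score in each.

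SRPK1 and SRPK2 shared the length of 10 of their 16 exons. Exons 2, 8, 9, 12, 13, 14 and 15 were listed as skipped in both genes. Exons 5 and 10 were listed in SRPK1 alone, exon 3 in SRPK2 alone, and exons 4, 6, 7 and 11 in neither. Identity over the equal-length coding exons ranged from 60.2% for exon 15 to 80.0% for exon 14. The shortest listed kinase exon was exon 9, a microexon of 26 bases, at chr6:35838711-35838736 in SRPK1 and chr7:104785730-104785755 in SRPK2, both on the minus strand. The copies were identical at 76.9% of positions.
SRPK1 exon 9: AGtcagtactgctccccagcctaaaccaGT
SRPK2 exon 9: AGtgagtacggctccacagcagaaacctGT

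The microexon had 3 events in SRPK1 and 1 in SRPK2. Its 3′SS score was 14.4 in SRPK1, above 94.7% of listed exons, and 9.83 in SRPK2. Its 5′SS score was 7.07 in SRPK1 and 6.72 in SRPK2. The weakest 5′SS of the SRPK genes was that of SRPK1 exon 10, on chromosome 6 from 35838058 to 35838271, with a score of 2.32. The weakest 3′SS was that of SRPK1 exon 15, from 35806114 to 35806206, with 2.21. The matching exon 15 of SRPK2 reached 13.6 at the 3′SS but 4.91 at the 5′SS.

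**Figure D3:**
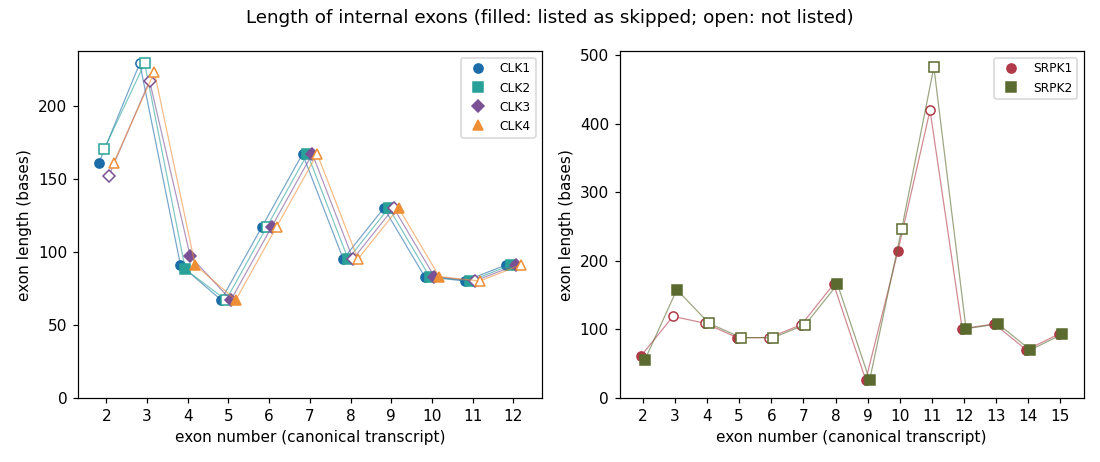
Length in bases (y axis) of the internal exons by number in the canonical transcript (x axis), for the CLK genes on the left and the SRPK genes on the right, with points of a gene joined and slightly offset. Filled points are exons listed as skipped. The CLK lines coincide from exon 5, at 67 bases, to exon 12, at 91 bases. The SRPK lines coincide at exons 4 to 9 and 12 to 15, with 26 bases at exon 9.

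Over the 46 kinase exons the median 5′SS score was 7.37, with quartiles of 5.39 and 9.58, beside 8.07 over all listed exons. The median 3′SS score was 9.26, with quartiles of 7.14 and 11.8, beside 9.21. The 5′SS of 9 kinase exons and the 3′SS of 4 lay in the lowest 10% of all listed exons. The 9 include exon 4 of every CLK gene, with the CLK2 site counted for both versions of the exon. The others were CLK4 exon 9, SRPK1 exons 5 and 10 and SRPK2 exon 15. These values describe the exons and were not tested, since exons of 1 gene are not replicates.

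Few internal kinase exons, listed as skipped or not, could be left out alone without shifting the reading frame. Of the 44 listed exons that were wholly coding in the canonical transcript, 6 had a length that is a multiple of 3, or 13.6% (95% Wilson interval 6.40 to 26.7). Over all genes this held for 22799 of 58035 such exons, or 39.3% (38.9 to 39.7). No test was made of this difference, and 35 of the 44 exons stand at exon numbers whose length is shared by the paralogs, so that they do not count as independent. The 6 exons were exon 6 of CLK1 and of CLK3, with 117 bases each, and exons 13 and 15 of SRPK1 and SRPK2, with 108 and 93 bases. Leaving out 1 of them alone removes from 31 to 39 codons. Exon 6 of CLK1 and of CLK3 and exon 13 of SRPK2 were not listed as skipped alone, since other canonical exons were absent too. Among the internal exons not listed as skipped, only exon 6 of CLK2 and CLK4 and exon 11 of SRPK1 and SRPK2 had a length that is a multiple of 3.

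The other 38 exons shift the frame when left out alone. In 32 of them the reading frame of the canonical transcript then met a stop codon more than 50 bases upstream of the last exon junction, a position at which transcripts are commonly subject to nonsense-mediated decay. In 5 the stop lay nearer or in the last exon. The remaining exon, CLK1 exon 2, holds the start codon. Without exon 4 the frame of CLK1 ended after 136 of 484 codons, that of CLK2 after 139 of 499, that of CLK3 after 152 of 490 and that of CLK4 after 143 of 481. Without the microexon alone the frame of SRPK1 ended after 251 of 655 codons and that of SRPK2 after 267 of 699. No SRPK1 event skipped the microexon alone. Its listed skipping forms lacked 240, 192 and 703 canonical bases, of which 240 and 192 are multiples of 3. Without exon 12 it ended after 441 codons in CLK1, 411 in CLK2 and 417 in CLK3, in each case within the last exon. The other exons of this kind were CLK2 exon 11 and CLK3 exon 10, with the stop 49 bases before the last junction. These are readings of the reference sequence, and no protein was measured. They leave out 1 exon at a time, also where an exon was listed only with other exons absent. CLK1 exon 12, for example, was listed only between exons 9 and 13.

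**Figure D4:**
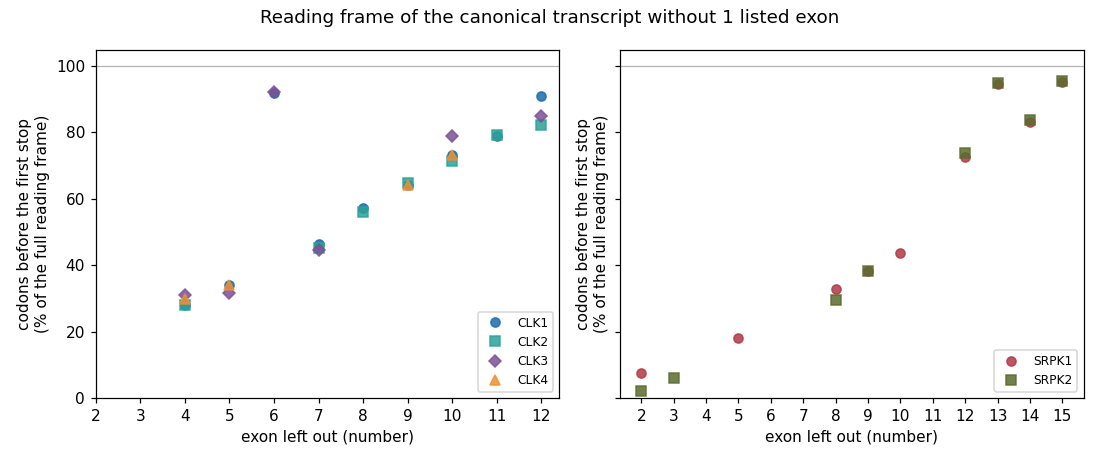
Codons before the first stop, in % of the full reading frame (y axis), when the canonical transcript lacks the 1 listed exon named on the x axis, for the CLK genes on the left and the SRPK genes on the right. Without exon 4 the CLK frames end after 136 to 152 codons, and the 6 highest points are the exons whose loss keeps the frame, which removes 31 to 39 codons. CLK1 exon 2, which holds the start codon, has no point.

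Many events joined exons that are far apart in the gene. In 50 of the 85 skipped-exon events at least 1 further canonical exon was missing from both forms, and in 35 the listed exon was the only one in question. The former were 10 of 17 events of CLK1, 12 of 19 of CLK2, 6 of 10 of CLK3, 3 of 6 of CLK4, 12 of 20 of SRPK1 and 7 of 13 of SRPK2. The share of such events over all genes is not given here. The longest skips left out 7 canonical exons, in CLK3 between exons 3 and 11 and in SRPK1 between exons 2 and 10. In CLK2 at most 6 were left out, between exons 6 and 13, in CLK1 5, in SRPK2 4 and in CLK4 2. Skipping several exons can restore the frame. Exons 9 and 10 of CLK4, with 130 and 83 bases, make 213 bases together, as do exons 2 and 3 of SRPK2, with 55 and 158. Among 73 events with canonical splice sites throughout that did not join from exon 1, the skipping form kept the frame in 17. These include the skips of SRPK1 exons 13 and 15 and of SRPK2 exon 15 alone, whose lengths are multiples of 3. A join listed for 2 exons, such as that of CLK4 exons 8 and 11, counts for each of them. The SRPK2 join without exons 2 and 3 starts from exon 1 and is not among the 73. The share over all genes is not given here.

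The mutually exclusive exon table, in which each form uses 1 of 2 exons, held 23 events of the kinase genes: 8 each for CLK2 and SRPK1, 4 for CLK1, 2 for CLK4, 1 for SRPK2 and none for CLK3. In 15 the pair were neighbours in the canonical transcript. In 22 both exons were also listed as skipped, so these events mostly describe the same exons again, and 25 of the 46 skipped exons recurred in this table. The exception was CLK4, where exons 6 and 8 were paired although neither was listed as skipped. How often skipped exons of all genes recur among mutually exclusive exons is not given here. The exon in most pairs was CLK2 exon 7, on chromosome 1 from 155236520 to 155236686, with 5. The 2 forms of an event shared a frame with each other in 8 of the 23 events, and that frame need not be the canonical one. The share over all genes is not given here. In CLK1 the events with a shared frame included exons 10 and 11, with 83 and 80 bases, and exons 7 and 8, with 167 and 95. None of these lengths is a multiple of 3, so leaving out any of these exons alone shifts the canonical frame.

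Relatives of these kinases and their substrates were listed to different extents. All 14 related kinases, chosen from the DYRK, HIPK, SRPK and CDK families and PRPF4B, had an event in at least 1 table, with a median of 7.5 events and a range from 1 to 25. The most were found in HIPK3 and CDK13, with 25 each, and the fewest in SRPK3 and DYRK2, with 1 each. SRPK3, the remaining SRPK gene, had no skipped exon and 1 alternative 3′SS event. Of 14 SR protein and TRA2 genes, 13 had an event, with a median of 6. TRA2A had 27 and SRSF11 had 21, whereas SRSF12 had none, and SRSF8 and SRSF9 had 1 each. A retained intron was listed in 4 of the 14 substrates and in 1 of the 14 related kinases, beside 1 of the 6 CLK and SRPK genes. Over all genes it was listed in 549 of the 12254 with any event. These counts were not tested.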

How the data were processed

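RNA-seq was done on 2 libraries, 1 per group, and the groups were taken from the labels. Per the labels, the submitters' processing notes name STAR 2.5.1 and the build hg19 (GRCh37). The authors ran rMATS (version not given in the sources used here) and deposited 5 tables with 1 event per row. The deposited tables hold 30 columns with the reads or inclusion level of a library, which match no sample by name, and 15 columns of the authors' p-values, FDR and inclusion level differences. None of these was used, so the planned test between libraries was not run and no depth is given. The effective lengths that the authors deposited show that body reads were counted: in all 85 skipped-exon events the inclusion form was longer than the skipping form, of 125 bases, by the exon.

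Starts were converted from 0-based to 1-based. On GRCh37, 98.9% of listed exons lay between AG and GT. Exons were matched by both ends to GENCODE release 44 lifted to GRCh37 and numbered along the Ensembl canonical transcript. Scores covered 9 bases for the 5′SS and 23 for the 3′SS, with a pseudocount of 0.5 and base frequencies at annotated sites with GT or AG. Exon pairs were aligned globally (Biopython). Reading frames were read from the canonical start codon without 1 exon, and a stop was set apart when it lay more than 50 bases before the last junction. Scoring and frames were tested on simulated sequences. Shares have 95% Wilson intervals.

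The genes and lists were chosen with earlier results of these data known. Named exons were those with the most events, those not a multiple of 3 (summarised by count where many), those outside the canonical transcript, those in several tables, and all other event types. Of the related genes, those with the most and fewest events were named. No protein sequence was printed. The software was Biopython 1.88, matplotlib 3.10.9, pandas 2.3.3, numpy 2.4.6 and scipy 1.17.1 on Python 3.11.15.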

Additional observations from a re-analysis of the deposited data

How the results depend on the processing

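The count of 112 events was the same when rows were matched by gene ID, which repeats the symbol in these tables. Requiring AG and GT or annotated splice sites could not change the 46 distinct skipped exons, since all of them have both. They became 45 with overlapping exons merged. The share of canonical internal exons listed stayed at 61.1% when any overlap was accepted, and the share of exons that keep the frame was 13.0% over all listed exons or over exons coding in any annotated transcript, beside 13.6%. The median 5′SS score ranged from 7.37 to 7.56 and the median 3′SS score from 9.26 to 9.30 under a pseudocount of 1, base frequencies of the listed exons, or canonical exons only. No paired analysis was possible because the control and amiloride groups hold 1 library each, without replicate numbers. The comparison of the libraries was not run, and neither condition could be left out in turn. An event with few reads could not be told from one with many.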
